A study of Mus musculus with 24 samples.

Results

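The small leucine-rich proteoglycans (SLRPs) are secreted proteins of the extracellular matrix, and 10 genes of the family that stromal cells express were followed in mammary glands and tumors: Dcn, Lum, Bgn, Fmod, Ogn, Aspn, Prelp, Omd, Podn and Ecm2. They were chosen by name, with earlier results of these data known, and their rows were found through the Ensembl identifiers of the GENCODE M1 annotation. All 10 were present among the 37991 genes of the count table, and all 10 were among the 14918 genes with enough reads to be tested.

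PyMT mice were F1 females heterozygous for the MMTV-PyMT transgene, offspring of PyMT males and FVB females, and control mice were FVB females. The transgene encodes the middle T antigen of polyoma virus and is driven by the long terminal repeat of mouse mammary tumor virus, which directs its expression to the mammary epithelium, whereas the SLRPs are products of the stroma. Total RNA of whole mammary tissue or tumor was sequenced at weeks 6, 8, 10 and 12 from 3 mice of each genotype. In PyMT mice the weeks stand for hyperplasia, adenoma/MIN (mammary intraepithelial neoplasia), early carcinoma and late carcinoma, and the series has 24 samples in 8 groups. Week and stage go together in PyMT mice, and age and stage cannot be told apart within them.

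SLRPs share a core protein of leucine-rich repeats, which many of them carry together with chains of chondroitin, dermatan or keratan sulfate. They bind fibrillar collagens and control how thick collagen fibrils grow and how they are spaced, and decorin and biglycan also bind growth factors and receptors. In the mammary gland they belong to the collagen-rich stroma around ducts and fat and are made mainly by fibroblasts. Decorin (Dcn), biglycan (Bgn) and asporin (Aspn) are class I SLRPs. Lumican (Lum), fibromodulin (Fmod), prolargin (Prelp) and osteomodulin (Omd) are class II, osteoglycin (Ogn) is class III and podocan (Podn) is class V. Ecm2, which encodes extracellular matrix protein 2, lies beside Aspn and has a leucine-rich repeat region related to those of the family.

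Most members lie in small clusters (mm9, GENCODE M1). Dcn (chr10:96942245-96980777, plus strand) and Lum (chr10:97028135-97035337, plus strand) are 47.4 kb apart. Ecm2 (chr13:49600179-49628158), Aspn (chr13:49639812-49662926), Omd (chr13:49678135-49687978) and Ogn (chr13:49703440-49719869) follow each other on the plus strand with gaps of 11.7, 15.2 and 15.5 kb. Prelp (chr1:135806881-135817991, minus strand) and Fmod (chr1:135933831-135944854, plus strand) are 115.8 kb apart, while Bgn (chrX:70728941-70741272, plus strand) and Podn (chr4:107687396-107704942, minus strand) stand alone. The 4 genes of chromosome 13 lie within the span of Cenpp, a centromere protein gene on the opposite strand, with which they share 0 bp of exon. Cenpp had 1246 counts over the 24 samples and was higher in PyMT mice (log2 fold change 1.81, SE 0.53, adjusted p = 0.006127 in edgeR's quasi-likelihood F test, Benjamini-Hochberg adjusted over all genes tested). Prelp shares 350 bp of exon with Gm15851, a transcript on the opposite strand with 4 counts in all. The strand setting of the counting was not given in the sources used here, so reads of these partners could not be assigned with certainty.

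The RNA results below turn on Bgn, whose level was not called different from that of normal glands, and on members such as Prelp, Ogn and Aspn, which were called lower, and the 250 bases upstream of their RefSeq start sites (GRCm38.p6, a later build than that of the counts) are shown for this reason. Promoters were found for 8 of the 10 members, and those of Dcn and Lum were not. Capitals mark matches, on either strand, to 6 motifs: the TATA box (TATAAA), the CCAAT box (CCAAT), the AP-1 site (TGANTCA), the SMAD element (GTCTAGAC), the TEAD element (GGAATG) and the E-box (CACGTG). The windows are chrX:73483351-73483600 on the plus strand for Bgn, chr1:133921402-133921651 on the minus strand for Prelp, chr13:49607765-49608014 on the plus strand for Ogn and chr13:49544193-49544442 on the plus strand for Aspn.
Bgn: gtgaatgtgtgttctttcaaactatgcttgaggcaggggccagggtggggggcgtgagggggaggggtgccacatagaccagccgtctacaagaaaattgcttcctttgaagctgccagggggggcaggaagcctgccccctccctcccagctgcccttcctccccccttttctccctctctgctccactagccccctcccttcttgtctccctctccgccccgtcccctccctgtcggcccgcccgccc
Prelp: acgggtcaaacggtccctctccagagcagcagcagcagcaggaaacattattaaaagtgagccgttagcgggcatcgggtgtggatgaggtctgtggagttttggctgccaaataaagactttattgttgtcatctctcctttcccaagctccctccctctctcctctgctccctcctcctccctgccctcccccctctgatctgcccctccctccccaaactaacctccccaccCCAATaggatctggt
Ogn: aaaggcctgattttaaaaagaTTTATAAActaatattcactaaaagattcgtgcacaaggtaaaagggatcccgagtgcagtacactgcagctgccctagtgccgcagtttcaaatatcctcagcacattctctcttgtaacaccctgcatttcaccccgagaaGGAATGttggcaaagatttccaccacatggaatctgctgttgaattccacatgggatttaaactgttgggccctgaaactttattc
Aspn: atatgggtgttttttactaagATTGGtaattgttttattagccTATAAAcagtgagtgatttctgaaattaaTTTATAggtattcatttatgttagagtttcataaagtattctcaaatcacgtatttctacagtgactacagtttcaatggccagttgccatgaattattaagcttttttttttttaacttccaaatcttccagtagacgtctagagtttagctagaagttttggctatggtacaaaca

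The Bgn window held no match to any of the 6 motifs and had a GC content of 64.4%, above that of 81.6% of the 32851 promoters of the table. Prelp held 1 CCAAT box, Ogn held a TATA box and 1 TEAD element, and Aspn held 2 TATA boxes and 1 CCAAT box. The TATA box of Ogn was counted on both strands because its letters overlap with their own complement. Fmod, Omd, Podn and Ecm2 held no match. Over all promoters of the same length a match was found in 12.4% for the TATA box, 33.8% for the CCAAT box, 6.75% for the AP-1 site, 0.167% for the SMAD element, 12.6% for the TEAD element and 6.02% for the E-box. GC content was lowest in Aspn, below which only 1.47% of all promoters lay, and highest at the first of 2 start sites of Podn (78.0%), beside a median of 52.4% over the table. A match is a run of letters and not a bound site, and the members were too few and too varied for a shared feature to be read from them.

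The libraries were modest in depth, with 6969375 to 13516601 counts per sample. In 13 of the 24 libraries (6 PyMT and 7 FVB) the smoothed histogram of low counts had a peak at 8 to 25 reads. This was read as packets of about that many reads, so that a gene of low level could be missed altogether. Counts below the packet size did occur, such as Omd with 2 counts in FVB replicate 2 of week 12 (packet size 9). Libraries without such a peak are called libraries without packets, and smaller packets in them could have been missed. Packets were not spread evenly over the groups, and every PyMT library of week 6 and every FVB library of week 10 had them. Of 3799 genes with a median of 10 to 30 CPM (counts relative to a library's total), up to 4.396% were at 0 in a library. Levels are given as normalized counts, which are counts over DESeq2's size factors. All 6 readings of 0 among the members fell in libraries with packets: Omd in 1 FVB and 3 PyMT samples, Fmod in 1 PyMT sample and Ecm2 in 1 PyMT sample. Levels of these 3 genes are therefore the least certain of the family.

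The summed RNA of the SLRPs was lower in PyMT mice at each week. Per kilobase of exon, the summed normalized counts of the 10 members were 5095 ± 849, 6682 ± 693, 8244 ± 1474 and 8022 ± 2778 (SD, n = 3) in FVB glands of weeks 6, 8, 10 and 12. In PyMT mice the same sums were 1210 ± 63.7, 1269 ± 427, 1164 ± 61.7 and 1408 ± 495. The lowest FVB sample (4114) stood above the highest PyMT sample (1710). In bulk tissue, fewer cells of a type and less RNA per cell cannot be told apart.

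**Figure D1:**
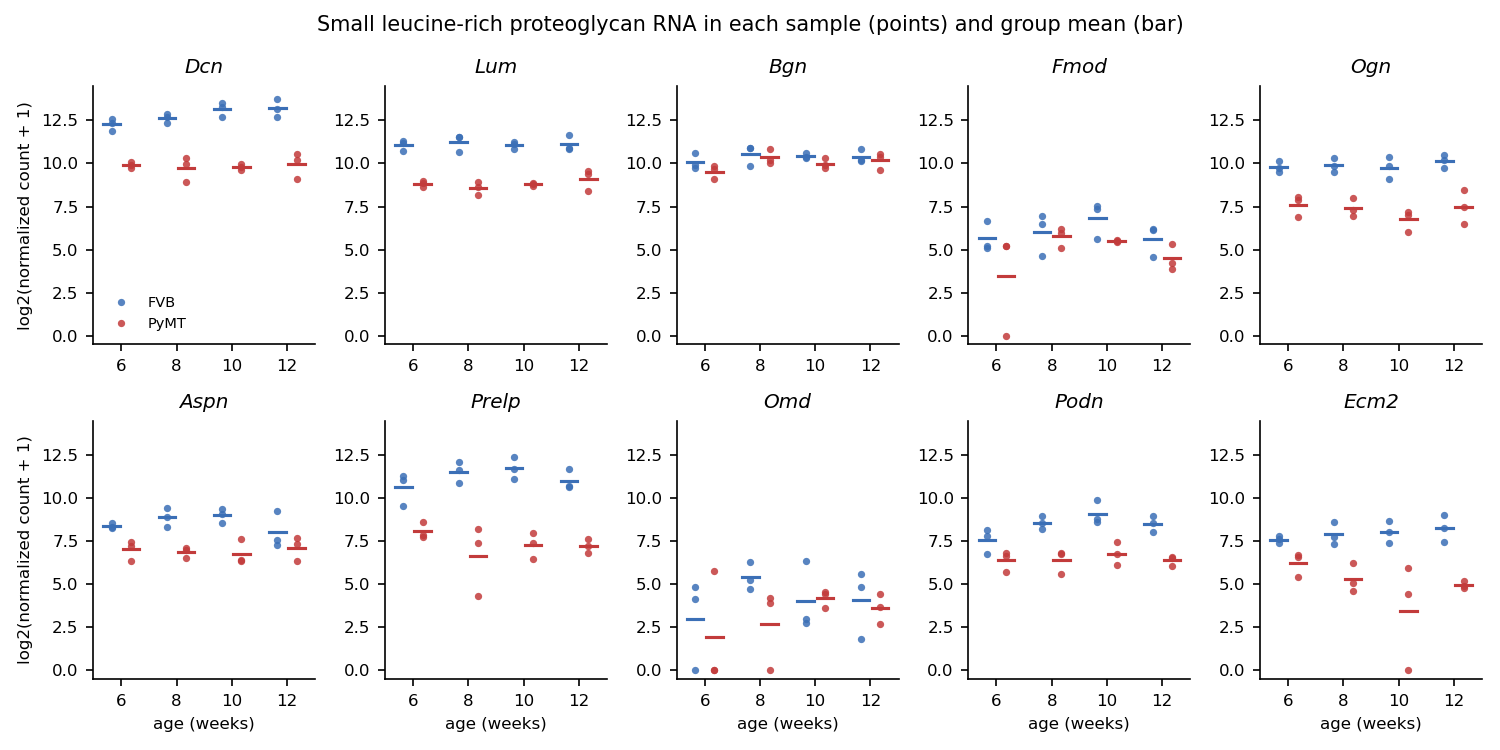
Normalized counts of the 10 SLRP genes on a log2 scale after adding 1 (vertical axis) by age in weeks (horizontal axis), with a point for each mouse, blue for FVB and red for PyMT, and a bar at the mean of the 3 log2 values. Dcn, Lum, Ogn, Prelp and Ecm2 separate the genotypes at each of the 4 weeks, whereas the points of Bgn overlap at weeks 6, 8 and 12 and those of Omd and Fmod scatter down to 0.

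Decorin, which binds collagen I and restrains several receptor tyrosine kinases, was the leading member. At week 6 FVB glands had normalized counts of 6191, 3751 and 5132, followed by 6698, 7569 and 5119 at week 8, by 9890, 6719 and 11920 at week 10 and by 9198, 6609 and 13750 at week 12. PyMT samples had 859.1, 962.6 and 1076 at week 6, then 1001, 487.6 and 1288 at week 8, then 984.9, 787.0 and 903.3 at week 10 and finally 1167, 1509 and 558.2 at week 12. The highest PyMT value was below the lowest FVB value, and the difference was present from hyperplasia on. Dcn was 5.23-fold lower at week 6 (log2 fold change -2.39, SE 0.25, adjusted p = 0.001705), 6.86-fold lower at week 8 (-2.78, SE 0.39, adjusted p = 0.007404), 10.3-fold lower at week 10 (-3.36, SE 0.28, adjusted p = 0.0003058) and 8.86-fold lower at week 12 (-3.15, SE 0.41, adjusted p = 0.001205) (edgeR).

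Lumican, which regulates fibril assembly in skin and cornea, is the neighbour of Dcn on chromosome 10. Its normalized counts ran from 1631 over a median of 2326 to 3267 in the 12 FVB glands and from 291.6 over 461.1 to 754.6 in the 12 PyMT samples, with no overlap. At week 12 the FVB values were 1859, 1928 and 3267 and the PyMT values 754.6, 679.5 and 332.7. Lum was lower in PyMT mice at every week, with log2 fold changes of -2.27, -2.65, -2.25 and -1.95 from week 6 to week 12 (adjusted p = 0.001551, 0.005381, 0.0003074 and 0.004499).

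Prelp, whose basic protein links basement membranes to the matrix beneath, differed most. The normalized counts of FVB glands were 2098, 755.9 and 2535 at week 6, 3170, 1907 and 4391 at week 8, 2264, 5363 and 3372 at week 10 and 1647, 1628 and 3396 at week 12. PyMT samples had 211.9, 385.9 and 236.0 at week 6, 168.9, 18.75 and 298.8 at week 8, 86.30, 249.4 and 169.7 at week 10 and 197.4, 149.6 and 113.7 at week 12. No PyMT sample reached the lowest FVB sample, and the low value of 18.75 belonged to a library with a packet size of 23 reads. From week 6 to week 12 Prelp was lower by 6.52-fold, 18.8-fold, 21.1-fold and 14.0-fold (adjusted p = 0.007925, 0.02089, 0.0009899 and 0.0003686). The call of week 8 was lost without FVB replicate 2 (adjusted p = 0.05327), FVB replicate 3 (0.05277) or PyMT replicate 1 (0.09017), while the log2 fold change stayed between -5.05 (without PyMT replicate 3) and -3.71.

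Osteoglycin, also called mimecan, had normalized counts from 536.2 over a median of 930.3 to 1415 in FVB glands and from 64.06 over 149.8 to 349.5 in PyMT samples. The genotypes did not overlap. The log2 fold changes of Ogn at the 4 weeks were -2.17, -2.46, -2.98 and -2.44, with adjusted p of 0.005809, 0.007886, 0.003212 and 0.005194. Without PyMT replicate 1 of week 12, the highest of the 12 PyMT samples, that difference became -3.06.

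Asporin, a relative of decorin that carries no chondroitin sulfate chain and binds transforming growth factor beta, had normalized counts from 155.0 over a median of 375.8 to 704.8 in FVB glands and from 80.07 over 131.0 to 202.5 in PyMT samples. The genotypes were apart at weeks 6, 8 and 10 and overlapped at week 12, where FVB glands had 189.7, 155.0 and 608.0 and PyMT samples 202.5, 82.27 and 164.5. Aspn was lower at week 6 (log2 fold change -1.30, adjusted p = 0.04322), week 8 (-2.09, adjusted p = 0.01092) and week 10 (-2.09, adjusted p = 0.0145) and was not called at week 12 (-1.04, SE 0.55, adjusted p = 0.2023), where the difference was -0.16 without FVB replicate 3. The call of week 6 was lost without any of the 6 samples but PyMT replicate 2, with adjusted p up to 0.1452. The call of week 10 was lost without PyMT replicate 1 (0.06342) or PyMT replicate 2 (0.05758).

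Podocan, which is known from the vessel wall, had normalized counts from 105.7 over a median of 374.9 to 971.8 in FVB glands and from 47.82 over 98.66 to 172.9 in PyMT samples. At week 6 the FVB values of 220.2, 105.7 and 289.9 overlapped with the PyMT values of 52.52, 101.2 and 114.0, and at weeks 8, 10 and 12 the genotypes were apart. Podn was not called at week 6 (log2 fold change -1.20, SE 0.49, adjusted p = 0.1598) and was lower at week 8 (-2.08, adjusted p = 0.02014), week 10 (-2.31, adjusted p = 0.01305) and week 12 (-2.11, adjusted p = 0.001934). Without FVB replicate 2 (0.06617) or PyMT replicate 1 (0.06868) the call of week 8 was lost, and without PyMT replicate 1 (0.06156) that of week 10.

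Ecm2 spread more widely. FVB glands had normalized counts of 194.7, 167.4 and 221.1 at week 6, of 386.0, 215.2 and 161.6 at week 8, of 170.3, 266.5 and 410.0 at week 10 and of 305.4, 175.2 and 530.3 at week 12. PyMT samples had 41.84, 104.3 and 94.74 at week 6, 73.46, 23.44 and 33.53 at week 8, 20.46, 0 and 59.71 at week 10 and 26.73, 28.85 and 36.04 at week 12. All 12 PyMT samples were below all 12 FVB samples. Ecm2 was called lower at week 8 (log2 fold change -2.53, adjusted p = 0.02942) and at week 12 (-3.41, SE 0.45, adjusted p = 0.001199) and not at week 6 (-1.28, adjusted p = 0.09986) or week 10 (-3.31, SE 1.14, adjusted p = 0.09104), where 1 library was at 0. The call of week 8 was lost without FVB replicate 1 (0.0589), FVB replicate 2 (0.07715), PyMT replicate 2 (0.05843) or PyMT replicate 3 (0.1013), and the difference became -3.13 without PyMT replicate 1. Week 10 was called by DESeq2 (adjusted p = 0.008669), by limma voom (0.02582), in the fit of all 24 samples (0.004459) and with each count divided by its packet size (-2.77, 0.008294), and week 6 by voom alone (0.04636). The difference of week 10 became -4.68 without PyMT replicate 3 and was not called whichever sample was left out (adjusted p from 0.05161).

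Biglycan, the closest relative of decorin, stood apart from these members. FVB glands had normalized counts of 963.1, 857.7 and 1563 at week 6, of 924.7, 1874 and 1896 at week 8, of 1274, 1320 and 1584 at week 10 and of 1166, 1144 and 1814 at week 12. PyMT samples had 924.1, 809.3 and 540.1 at week 6, 1158, 1040 and 1846 at week 8, 1262, 948.4 and 862.4 at week 10 and 1487, 1338 and 777.2 at week 12. The genotypes overlapped at weeks 6, 8 and 12, and at week 10 the highest PyMT sample was just below the lowest FVB sample. Bgn was not called at any week, with log2 fold changes of -0.58 (SE 0.28, adjusted p = 0.2307), -0.19 (SE 0.34, adjusted p = 0.7641), -0.39 (SE 0.20, adjusted p = 0.2404) and -0.15 (SE 0.28, adjusted p = 0.7293) at the 4 weeks in turn. The sign at weeks 8 and 12 turned to 0.02 and 0.17 when counts were scaled by library size only, and that at week 12 also without FVB replicate 3 (0.10) or PyMT replicate 3 (0.08).

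Fibromodulin and osteomodulin were the rarest members. Fmod had normalized counts from 22.87 over a median of 70.83 to 184.7 in FVB glands and from 0 over 37.92 to 73.46 in PyMT samples. Omd, which is best known from bone, ran from 0 over 26.52 to 79.81 in FVB glands and from 0 over 12.93 to 54.23 in PyMT samples. Neither was called at a single week, and both overlapped between the genotypes over all weeks. Within single weeks, Fmod was just apart at week 10 (PyMT up to 46.27, FVB from 48.15). Omd was apart at week 8 (PyMT up to 17.17, FVB from 25.23). Log2 fold changes of Fmod lay between -1.52 (week 10, adjusted p = 0.1513) and -0.44 (week 8, adjusted p = 0.7399), and the week 8 value turned to 0.06 without FVB replicate 3. Those of Omd lay between -2.12 (week 8, SE 1.39) and 0.23 (week 6, SE 2.23), and the sign turned at week 6 without FVB replicate 2 (-0.36) or PyMT replicate 2 (-7.16) and at week 10 without FVB replicate 3 (1.56).

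By these calls (adjusted p under 0.05 and a fold change beyond 2 in edgeR's quasi-likelihood test), 5 of the 10 members were lower at week 6, beside 6.46% of all genes tested. At week 8 the count was 7, beside 6.37%, at week 10 it was 6, beside 9.09%, and at week 12 it was 6, beside 13.0%. Dcn, Lum, Ogn and Prelp were called at each week. The median log2 fold change of the members was -1.29, -2.29, -2.28 and -2.03 from week 6 to week 12, whereas that of all genes tested was -0.08, -0.04, 0.01 and -0.000462. No member was called higher at any week, beside 3.58%, 3.57%, 4.83% and 7.75% of all genes, and none was higher at an unadjusted p under 0.05 or by DESeq2 or limma voom. At week 8 the count of 7 fell to 4 without FVB replicate 2 and to 3 when the test was made against a 2-fold change.

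With the week taken out as a factor, 12 PyMT samples were compared with 12 FVB samples. In this fit, 8 of the 10 members were lower, beside 17.2% of all genes tested, and 0 were higher, beside 8.51%. The order of the called members was Prelp (13.9-fold lower, log2 fold change -3.80, SE 0.36, adjusted p = 3.631e-09), Dcn (7.61-fold, -2.93, SE 0.20, adjusted p = 2.371e-11), Ecm2 (6.23-fold, -2.64, SE 0.42, adjusted p = 1.062e-05), Ogn (5.73-fold, -2.52, SE 0.22, adjusted p = 1.416e-09), Lum (4.89-fold, -2.29, SE 0.15, adjusted p = 1.761e-11), Podn (3.83-fold, -1.94, SE 0.24, adjusted p = 2.48e-07), Aspn (3.11-fold, -1.64, SE 0.25, adjusted p = 5.285e-06) and Fmod (2.13-fold, -1.09, SE 0.45, adjusted p = 0.04352). From Dcn to Lum each gene lay within the combined standard errors of the next, as did Podn and Aspn, and differences between genes were not tested here. Bgn (-0.34, SE 0.15, 95% confidence interval -0.65 to -0.03, adjusted p = 0.06547) and Omd (-0.89, SE 0.84, 95% confidence interval -2.63 to 0.85, adjusted p = 0.3964) were not called. The interval of Bgn lay wholly below 0 (unadjusted p = 0.03491 in edgeR), which is a small decrease and not a 2-fold one. A difference of that size cannot be called under the 2-fold rule. Its adjusted p ran from 0.01995 to 0.1442 with 1 sample left out, and from 0.02754 to 0.8023 under other scalings, filters and tests. The interval of Omd is too wide to place it, and the Omd value became -1.79 without PyMT replicate 2 of week 6 (adjusted p = 0.07847). The call of Fmod was lost without any of 14 of the 24 samples (all but FVB replicates 1 and 2 and PyMT replicates 1 and 3 of week 6, FVB replicate 1 and PyMT replicates 1 and 3 of week 8, FVB replicate 1 of week 10, and FVB replicate 1 and PyMT replicate 2 of week 12), with adjusted p up to 0.0932.

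**Figure D2:**
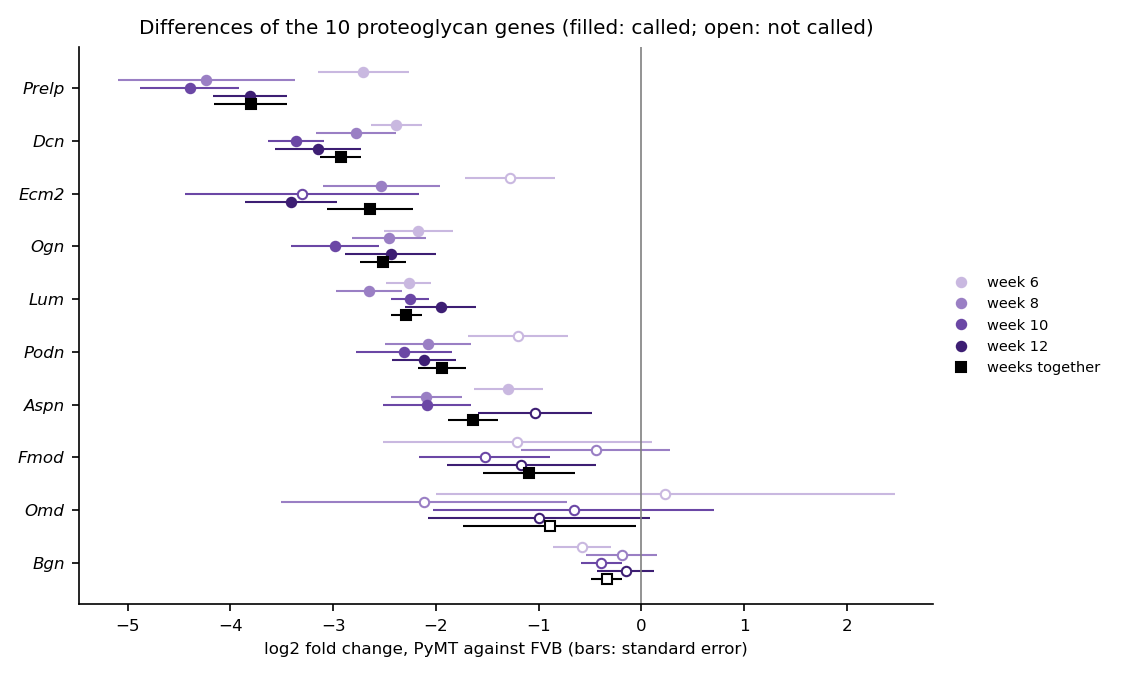
Log2 fold change of each SLRP gene, PyMT against FVB (horizontal axis), with bars of 1 standard error, for each week (circles, darker with age) and for the weeks together (squares). Filled symbols were called by edgeR's quasi-likelihood test, and the symbols of Prelp, Dcn, Ogn and Lum are filled at each week whereas those of Bgn and Omd are open throughout.

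Within single weeks, all 3 PyMT samples were below all 3 FVB samples in 6 members at week 6, in 8 at week 8, in 9 at week 10 and in 6 at week 12, where the same held for 20.4%, 21.7%, 21.6% and 25.2% of all genes tested. In 5 members (Dcn, Lum, Ogn, Prelp and Ecm2) all 12 PyMT samples were below all 12 FVB samples, which held for 7.22% of all genes tested. The same 5 were below FVB within each of the 4 weeks, which held for 9.99% of the genes. The median log2 fold change of the 10 members over all weeks was -2.11, and that of all genes tested was -0.03. Scaling by library size alone moved the median of all genes by 0.29 and changed the share of lower genes among all calls from 67.0% to 49.4%, and 7 members were then still called lower, Fmod being the exception (adjusted p = 0.1237).

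The 11 libraries without packets, meaning those with no such peak found (6 PyMT and 5 FVB), were also fitted alone. That choice was made after the packets had been seen. These libraries included no PyMT sample of week 6 and no FVB sample of week 10. The genotype difference of this fit therefore rests on weeks 8 and 12. Again 8 members were called lower, beside 14.6% of all genes, and 0 were higher. Fmod was no longer among them (log2 fold change -0.79, adjusted p = 0.2664), whereas Omd was (-1.72, adjusted p = 0.0212). Dividing every count by its packet size likewise called Omd (-1.19, adjusted p = 0.03986) and not Fmod, whose difference was then under 2-fold (-0.94, adjusted p = 0.01229). The values of Bgn (-0.39, adjusted p = 0.3181), Dcn (-2.93) and Prelp (-4.20) were close to those of all libraries.

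The make-up of the family differed between the genotypes. Normalized counts per kilobase give levels that can be compared between genes. In FVB glands Dcn made up 55.7% ± 8.45 (SD, n = 12) of the summed level of the 10 members, Lum 16.7% ± 5.28, Prelp 10.8% ± 4.97, Ogn 5.82% ± 1.82, Bgn 5.59% ± 1.35 and Aspn 2.58% ± 0.87. In PyMT samples Dcn made up 39.0% ± 4.60, Bgn 24.2% ± 5.98, Lum 18.0% ± 2.35, Ogn 5.43% ± 2.11, Aspn 4.70% ± 2.06 and Prelp 4.14% ± 2.06. In normal glands Ogn and Bgn did not differ beyond their spread, and neither did Ogn, Aspn and Prelp in PyMT samples. The mean shares of Podn, Ecm2, Fmod and Omd were between 0.251% (Omd in FVB) and 1.83% (Podn in PyMT mice), and that of Podn was 2.41% in PyMT mice of week 10. The share of Bgn was 17.6% ± 4.81 (SD, n = 3) at week 6 and 30.4% ± 5.54, 24.6% ± 3.93 and 24.3% ± 1.84 at weeks 8, 10 and 12 in PyMT mice, against 6.18% ± 1.51, 6.49% ± 1.98, 4.78% ± 0.42 and 4.90% ± 0.50 in FVB mice.

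**Figure D3:**
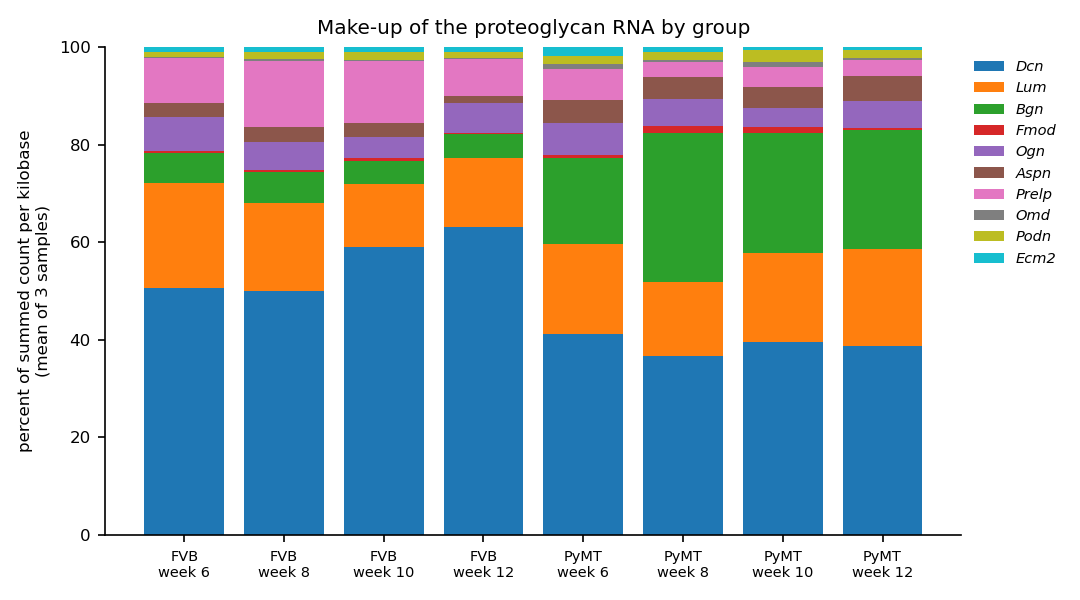
Share of each SLRP gene in the summed normalized counts per kilobase of the 10 genes (vertical axis, percent, mean of 3 samples) in the 8 groups (horizontal axis). The green part, Bgn, takes 4.78% to 6.49% in the FVB groups and 17.6% to 30.4% in the PyMT groups, and the pink part, Prelp, is thinner in PyMT mice.

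Ratios within a library need no scaling between libraries, and 5 of them were tested by a two-sided exact permutation test with labels exchanged within each week (160000 arrangements, Benjamini-Hochberg adjusted over the 5). These 5 were chosen with earlier results of these data known, and the adjustment does not take that choice into account. Their p-values therefore restate differences already seen and are no separate evidence. The log2 ratio of Bgn to Dcn counts was -2.68, -2.13 and -1.72 in FVB glands of week 6 and -2.98, -2.53 and -2.92 in those of week 12. In PyMT samples it was 0.11, -0.25 and -0.99 at week 6 and 0.35, -0.17 and 0.48 at week 12. At each of the 4 weeks all PyMT ratios lay above all FVB ratios. The mean log2 ratio was -2.46 ± 0.53 (SD, n = 12) in FVB and 0.16 ± 0.51 in PyMT mice, a 6.12-fold difference with a permutation p of 1.25e-05, the smallest the test can give (adjusted p = 3.125e-05).

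Lum and Aspn also gained on Dcn. The log2 ratio of Lum to Dcn was -1.68 ± 0.59 in FVB and -1.02 ± 0.25 in PyMT mice (SD, n = 12), a difference of 0.66 (permutation p = 0.0030625, adjusted p = 0.003063). That difference was 0.11, 0.24, 1.09 and 1.21 at the 4 weeks in turn, and all PyMT samples were above all FVB samples only at weeks 10 and 12. Whether the difference changed with the week was not tested for the ratio. The log2 ratio of Aspn to Dcn was -4.23 ± 0.74 in FVB and -2.90 ± 0.76 in PyMT mice, a difference of 1.33 (permutation p = 0.0002, adjusted p = 0.00025), with the genotypes apart at 3 of the 4 weeks.

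Fibroblast markers were also lower in PyMT mice. All 8 of the list (Pdgfra, Fap, Thy1, Dpt, Mfap5, Fbln1, Clec3b and Pi16) were called lower over all weeks (median log2 fold change -2.02), beside 17.2% of all genes tested. Of these 8, 7 were called lower with scaling by library size only, and 7 in the libraries without packets. Their summed normalized counts were 6212 to 13330 in FVB and 1231 to 2718 in PyMT samples. Their part in the SLRP differences was not tested beyond the ratios. Set against the mean log2 count of these markers, the log2 ratio of Dcn was 3.26 ± 0.29 (SD, n = 12) in FVB and 2.41 ± 0.35 in PyMT mice, a 1.81-fold lower level (permutation p = 2.5e-05, adjusted p = 4.167e-05). That of Bgn was 0.81 ± 0.39 in FVB and 2.56 ± 0.51 in PyMT mice, a 3.38-fold higher level (permutation p = 1.25e-05, adjusted p = 3.125e-05), with all PyMT samples above all FVB samples at each week. The Dcn value overlapped between genotypes at week 6, where FVB glands had 3.01, 2.79 and 3.07 and PyMT samples 2.65, 2.84 and 2.41, and was apart at weeks 8, 10 and 12.

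**Figure D4:**
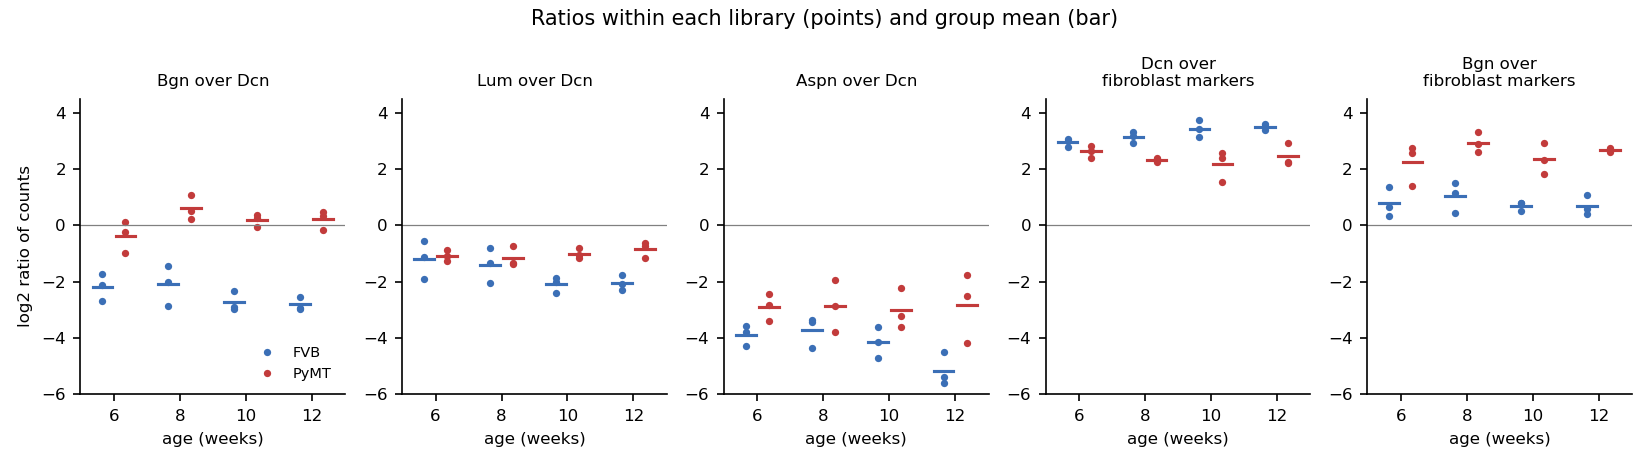
Log2 ratios of counts within each library (vertical axis) by age in weeks (horizontal axis), a point for each mouse and a bar at the mean of 3, blue for FVB and red for PyMT. From left to right Bgn, Lum and Aspn are set over Dcn, and Dcn and Bgn over the mean log2 count of 8 fibroblast markers. The red points of Bgn lie above the blue ones at every week against both denominators, and those of Dcn lie below the blue ones from week 8 on.

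Markers of other cell types were counted by the same calls, beside 17.2% lower and 8.51% higher of all genes tested. The summed normalized counts of 8 adipocyte markers were 54630 to 163000 in FVB and 1371 to 18640 in PyMT samples, and all 8 were called lower. All 6 endothelial markers were called lower too, with sums of 3597 to 6976 against 497.9 to 1635. All 8 skeletal muscle markers were called lower, with widely spread sums of 79.29 to 541600 against 0 to 30540. At weeks 6, 8, 10 and 12 alone 0, 2, 0 and 7 of these 8 were called lower, beside 6.46%, 6.37%, 9.09% and 13.0% of all genes. Of 8 luminal epithelial markers 7 were called higher, with sums of 4341 to 19110 in FVB and 21160 to 40310 in PyMT samples. Of 6 basal markers 3 were lower (4386 to 14300 against 1158 to 5744). Of 6 macrophage markers 1 was lower (2183 to 5703 against 1953 to 4027), which is near the share of all genes. None of the 6 lymphocyte markers had enough reads to be tested (sums of 0 to 97.14 and 0 to 45.06). Of 6 cartilage and bone markers, Matn1 and Ibsp were at 0 throughout and only Col9a1 was tested, which was higher (log2 fold change 4.96). The part of these shifts in the SLRP differences was not tested.

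The difference between genotypes did not change detectably with stage. Between week 6 and week 12, 0 of the 10 members changed their PyMT against FVB difference (adjusted p of 1 for each in edgeR's quasi-likelihood test), beside 0% of all genes, and 0 had an unadjusted p under 0.05. The nearest was Ecm2, whose difference moved by -2.14 on the log2 scale (SE 1.05, unadjusted p = 0.05458). Between weeks 8 and 10, the step from adenoma to carcinoma, 0 members changed, beside 0.00670% of all genes, and 0 had an unadjusted p under 0.05. DESeq2 and limma voom called 0 members in either test. On simulated data the tests for a changed difference found only 33% (weeks 6 and 12) and 35.5% (weeks 8 and 10) of genes given an absolute log2 change of 2. A change of that size could therefore be missed. The intervals were wide. For Dcn the 95% confidence interval of the change from week 6 to week 12 ran from -1.82 to 0.28, for Lum from -0.56 to 1.16 and for Bgn from -0.51 to 1.34.

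Within a genotype, 0 members were called between week 6 and week 12 in PyMT or in FVB mice by edgeR, DESeq2 or limma voom, beside 0% of all genes by edgeR in each. At an unadjusted p under 0.05 there was 1 member in each. Bgn had a log2 fold change of 0.67 from week 6 to week 12 in PyMT mice (SE 0.32, unadjusted p = 0.04481, adjusted p = 0.7203), and Dcn one of 0.94 in FVB mice (SE 0.36, unadjusted p = 0.01652, adjusted p = 0.9997). Neither passed the adjustment.

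Other genes of the SLRP pathway were followed through 7 lists, over all weeks and by the same test, in which 17.2% of all genes tested were lower and 8.51% higher. Of 9 further SLRPs, Chadl (log2 fold change -2.49, adjusted p = 0.007397) and Tsku (-2.21, adjusted p = 6.485e-05) had enough reads and both were lower. Of 10 collagens whose fibrils carry SLRPs or run beside them, 9 were lower and 1 was higher, with a median of -1.51. Col5a1, a chain of the collagen that nucleates fibrils, had the largest decrease (-1.84, adjusted p = 7.652e-09), and Col12a1, a fibril-associated collagen, was the exception (1.05, adjusted p = 0.003649).

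Among the enzymes that build the sugar chains of SLRPs, 8 of 22 tested genes of chondroitin and dermatan sulfate synthesis were lower and 0 higher (median -0.93). Chst15, a sulfotransferase of chondroitin sulfate, had the largest decrease (-3.28, SE 0.22, adjusted p = 2.021e-11). Of 7 tested genes of keratan sulfate synthesis 4 were lower and 0 higher (median -1.13), with Chst1, which sulfates galactose in keratan sulfate, at -4.60 (SE 0.43, adjusted p = 3.967e-09). Among proteases able to cleave SLRPs, 6 of 8 were lower and 0 higher (median -1.41), and Mmp9, a gelatinase, had the largest decrease (-3.83, SE 0.56, adjusted p = 3.402e-06).

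Receptors and growth factors bound by decorin or biglycan did not share a direction. Of 11 tested, 3 were lower and 2 higher, with a median of 0.54, and these counts are not far from the shares of 17.2% and 8.51% over all genes. Kdr, the main receptor of vascular endothelial growth factor and an endothelial gene, had the largest decrease (-2.52, adjusted p = 1.39e-10), and Tgfb3, a transforming growth factor beta, the largest increase (1.61, SE 0.13, adjusted p = 5.145e-10). Of 17 tested proteoglycans outside the SLRP family 9 were lower and 0 higher (median -1.26), with Cspg4, the NG2 proteoglycan of pericytes, at -2.83 (SE 0.26, adjusted p = 3.279e-09). Scaling by library size alone, which raised the median of all genes by 0.29, left 5 lower and 1 higher for chondroitin and dermatan sulfate synthesis, 2 lower and 1 higher for keratan sulfate synthesis, 8 lower and 1 higher for the other proteoglycans and 3 lower and 4 higher for the receptors and growth factors. Collagens and proteases kept their counts under that scaling. In the libraries without packets 1 further SLRP was called lower instead of 2, no collagen was higher, and the 8 skeletal muscle markers were not called. There 5 proteases were lower instead of 6, 9 genes of chondroitin and dermatan sulfate synthesis instead of 8 and 2 macrophage markers instead of 1. The other proteoglycans had 7 lower and 1 higher, and keratan sulfate synthesis 4 lower and 1 higher.

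**Figure D5:**
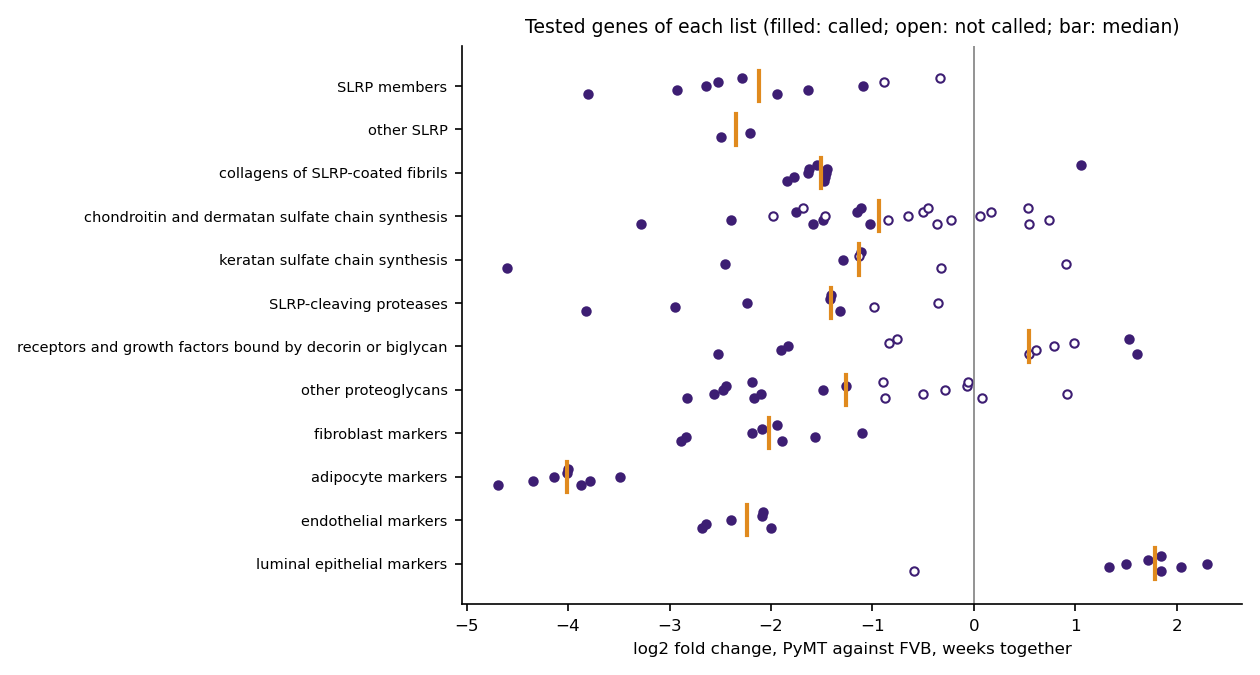
Log2 fold change over all weeks, PyMT against FVB (horizontal axis), of every tested gene of each list (rows), filled where called by edgeR's quasi-likelihood test, with an orange bar at the median of the list. The SLRP members have their median at -2.11, near that of the fibroblast markers at -2.02, and the luminal epithelial markers lie to the right of 0 but for 1.

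Genes that varied with each member from mouse to mouse were sought after the mean of each of the 8 groups had been removed, over 24 samples. The correlations describe libraries that share depth, packets and tissue make-up. The genes named were picked as the highest of all tested genes outside the members, so their values are selected to be large. Dcn went with Ddr2, a collagen receptor (Pearson r = 0.90), Mmp2 (0.83) and Abcc5 (0.82). For Lum the nearest genes were Col6a1, Igsf10 and Lamc1 (0.85, 0.85 and 0.84), and for Bgn they were Sparc, Srpx and Col1a2 (0.83, 0.80 and 0.80), where Sparc and Col1a2 encode collagen-binding and collagen proteins. Prelp went with Atp2b4 (0.92), Eng (0.91) and Dzip1l (0.90), of which Eng encodes the endothelial receptor endoglin. Podn was nearest to Hpse, Asph and Has3 (0.86, 0.82 and 0.82), Ogn to Clk1, Sepp1 and Zfp133-ps (0.77, 0.77 and 0.75) and Aspn to Foxo3, Foxo1 and Bsdc1 (0.73, 0.73 and 0.71). The rare members gave high values too, among them Zfp429 for Ecm2 (0.95), Zcchc3 for Fmod (0.88) and Itgbl1 for Omd (0.83). Among the members themselves, r was highest for Lum and Bgn (0.74), lower for the neighbours Dcn and Lum (0.60) and close to 0 for Bgn and Ecm2 (-0.04).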

How the data were processed

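RNA of mammary tissue or tumors was measured in 24 samples, and groups were taken from genotype and week in the labels. Alignment to mm9 used GSNAP and counting used HTSeq per the labels, and the authors deposited raw counts for each Ensembl gene. The strand setting of the counting was not given in the sources used here. Symbols, exon lengths and mm9 positions came from GENCODE M1, which had 37205 of the 37991 genes. Total counts ran from 6969375 to 13516601, which limits the precision of rare genes, and replicates were separate mice whose chi-square per gene (20.39 to 238 over 24 pairs) showed no copied library. The transgene was not analysed here.

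Genes that reached a CPM of 1 in 12 or more of the 24 samples were tested with edgeR 4.0.16 in R 4.3.3 (quasi-likelihood test, TMM scaling, Benjamini-Hochberg adjustment) and called at an adjusted p under 0.05 and, except for changes between weeks of the genotype difference, a log2 fold change beyond 1. Each week was fitted alone, the weeks together with week as a factor, and changes with week in 8 groups. Levels are counts over DESeq2 1.42.0 size factors, with 1 added before log2. Ratios used counts plus 0.5. The fits were tested on simulated data, in which 200 genes carried an absolute log2 change of 2. Single-week fits recovered between 40.5% (week 10) and 47.5% (week 6) of the changed genes, and the fit over all weeks 80%. Recovery was lower for changes of the genotype difference (33% from week 6 to 12, 35.5% from week 8 to 10). The week 6 fit had the most wrong calls, 12 among 107. A member left uncalled may therefore still differ. All 10 members are named, with the 3 genes most alike to each, and from each pathway list the called gene with the largest increase and that with the largest decrease. The members, the lists and the ratios were chosen with earlier results of these data known. Alternatives were other scalings and filters, DESeq2, limma 3.58.1 voom with sample weights, counts divided by packet size, a replicate block, a fit of all samples, a test against 2-fold, other pseudocounts and each sample left out. SciPy 1.17.1 and pandas 2.3.3 were used under Python 3.11.15.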

Additional observations from a re-analysis of the deposited data

How the results depend on the processing

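Of the counts of members called lower, that of week 8 changed by more than 1.5 times: it was 7, was 3 in the test against a 2-fold change and ranged from 4 to 6 with 1 sample left out, the 4 being without FVB replicate 2. The other counts were 4 to 6 (week 6), 4 to 7 (week 10), 6 throughout (week 12) and 7 or 8 (all weeks), and no member was called higher or changed with week under any alternative run. All 5 ratios kept their direction and their calls under the pseudocounts, the replicate block and each left-out sample. Signs of uncalled values turned as follows. Omd at week 6 was -2.42 with voom, -1.03 with counts divided by packet size and -4.20 with the replicate block, and ranged from -7.16 to 1.10 with 1 sample left out. At week 10 it was 1.29 with voom and 0.32 with the replicate block, and ranged from -1.15 to 1.56. Bgn with library size only was 0.017 at week 8 and 0.17 at week 12, with a range of -0.32 to 0.10 at week 12 when 1 sample was left out. Fmod at week 8 ranged from -0.86 to 0.064. The cause of these changes was not tested.

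The labels do not say whether replicate numbers mark paired mice, and they were not treated as pairs: same-numbered PyMT and FVB samples of a week correlated at -0.0251 to 0.1765 after removal of group means, 4 of 12 pairs were over 0.1, and 6 of the 12 PyMT samples correlated best with their own number. With the replicate block, 4 members were called lower at week 6, 7 at week 8, 6 at weeks 10 and 12 and 7 over all weeks, beside 5.11%, 5.96%, 8.63%, 11.5% and 17.0% of all genes. The block ended the calls of Aspn at week 6 (adjusted p = 0.06809) and of Fmod over all weeks (0.09019). The Aspn call of week 6 was lost in 5 of 10 alternatives (adjusted p 0.01224 to 0.5745), and the test against a 2-fold change, a stricter test, also ended the calls of Aspn, Prelp, Podn and Ecm2 at week 8 and of Aspn and Podn at week 10. Over all weeks the calls differed in Fmod, and in Omd where packets were divided out or left out. At single weeks the genes called lower among all tested were 1.68%, 1.58%, 4.40% and 6.39% in the test against a 2-fold change, instead of 6.46%, 6.37%, 9.09% and 13.0%, and without PyMT replicate 1 they were 3.58% (week 6), 2.14% (week 8) and 5.94% (week 10), the lowest with any 1 sample left out; without FVB replicate 2 they were 3.11% at week 8. They rose at week 6 to 9.95% with DESeq2 and at week 8 to 11.0% with DESeq2, 10.7% with voom and 11.6% with counts divided by packet size. Genes called higher were 0.831%, 0.724%, 1.43% and 2.75% against a 2-fold change, instead of 3.58%, 3.57%, 4.83% and 7.75%. With counts divided by packet size they were 5.97% at week 8 and 7.45% at week 10, and with DESeq2 5.66% at week 8. Without PyMT replicate 1 they were 2.17%, 1.30% and 2.52% at weeks 6, 8 and 10, again the lowest, and without FVB replicate 2 of week 8 they were 1.47%. Scaling by library size alone gave 5.56% at week 8, 13.8% at week 12 and, over all weeks, 13.7% instead of 8.51%, shifted the all-gene median by 0.27, 0.24, 0.29 and 0.32 (log2) at the 4 weeks, and left 42.6% to 49.4% of calls lower, weeks alone or together, against 62.6% to 67.0% with TMM. The values of Omd, Fmod and Ecm2, whose counts reached 0 only in libraries with packets, are the least certain.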
